A study of Mus musculus with 4 samples.

Results

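Fndc3a, Fndc3b and Fndc3c1 are members of the Fndc3 family of the mouse, and the 3 genes were examined here in rib chondrocytes that had lost Eed, a core subunit of Polycomb repressive complex 2 (PRC2). Fndc3c1 was chosen by its log2 difference, the highest of the 14944 genes tested, and Fndc3a and Fndc3b were chosen as its paralogs whatever their values. All 3 members were found among 22305 named genes, each with 1 probe set, and all 3 passed the filter on dim genes. Fndc3c1 is listed in the deposited table under its older name Gm784. It passed the filter through the Eed cKO arrays, since its Wt signal alone lay under the limit of about 623.

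Expression was measured on 4 arrays (Affymetrix Mouse Gene ST 1.0), 2 for wild-type (Wt) and 2 for conditional knockout cells (Eed cKO). The cells were primary chondrocytes from ribs of newborn pups 0.5 days old, on a mixed C57B6/129Sv background, and all were cultured overnight with 10% FCS. In the knockout a floxed Eed gene was removed by Col2-Cre, a recombinase driven by the promoter of collagen II, so cells that never used this promoter kept Eed. Knockouts were compared with littermates. The arrays are described as biological duplicates, but no source used here says whether an array held 1 pup or several or whether the Wt pups carried Cre, and p-values measure the spread between these samples only.

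PRC2 places the silencing mark H3K27me3 on histone H3 and keeps many developmental genes off in cells that do not need them. Fndc3 proteins carry a row of fibronectin type III domains, the fold that also builds fibronectin, followed by a hydrophobic stretch near the C-terminus that anchors them in membranes. Fndc3a is the gene hit in the mouse mutant sys (symplastic spermatids), in which spermatids lose their adhesion to Sertoli cells and fuse. Fndc3b, also called Fad104, was described in mice as a factor for fat cell differentiation that also acts on bone-forming cells. Fndc3c1 is the X-linked member.

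The stretches just before the start sites of Fndc3c1 and Fndc3b are shown because the first gene had the highest rise of all and the second stayed within the spread of its arrays. Both are 250 bases long, from RefSeq (GRCm38.p6), written 5′ to 3′ on the minus strand that carries the gene, at chrX:106485230-106485479 and chr3:27710453-27710702. Capitals mark each CG dinucleotide, the letters at which DNA can be methylated and which are dense in CpG islands.
Fndc3c1: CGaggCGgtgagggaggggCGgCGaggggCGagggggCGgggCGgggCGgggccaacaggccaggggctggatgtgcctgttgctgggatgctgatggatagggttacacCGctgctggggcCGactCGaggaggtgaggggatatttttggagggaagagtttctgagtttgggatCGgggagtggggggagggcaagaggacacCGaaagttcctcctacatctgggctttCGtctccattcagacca
Fndc3b: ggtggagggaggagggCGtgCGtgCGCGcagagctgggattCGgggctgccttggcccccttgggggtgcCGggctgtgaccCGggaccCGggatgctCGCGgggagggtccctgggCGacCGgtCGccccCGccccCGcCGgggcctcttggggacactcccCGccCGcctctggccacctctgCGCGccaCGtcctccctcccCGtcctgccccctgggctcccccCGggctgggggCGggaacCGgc

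The Fndc3c1 stretch held 14 CG dinucleotides, a number reached by 29.4% of 32851 mouse promoter windows of the same length, and its GC content was 64%. The Fndc3b stretch held 25, reached by 10.7% of windows, at a GC content of 79.2%. The median window held 6. The GC box GGGCGG, counted on both strands and overlapping the CG count by its own letters, occurred 4 times before Fndc3c1 and 3 times before Fndc3b, numbers reached by 4.09% and 8.47% of windows. The motif TATAAA, also counted on both strands, occurred in 12.4% of windows and in neither stretch. The window of Fndc3a was not analysed here.

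The deletion was visible in the targeted gene. Eed was at 3597 and 3530.4 on the Wt arrays and at 1057 and 990.3 on the Eed cKO arrays, in replicate order. The array medians lay between 830 and 837. All 10 chondrocyte markers passed the filter on dim genes, among them Col2a1, which encodes collagen II, at signals between 36621 and 37633. By limma, Matn1, encoding the cartilage matrix protein matrilin, rose by 0.56 (adjusted p = 0.0129). Acan, encoding aggrecan, fell by 0.12 (0.0305), Cnmd, encoding chondromodulin, fell by 0.12 (0.0216), and 7 did not pass. Of all genes tested, 15.6% were called. The summed chondrocyte signal was 247018 and 251271 on the Wt arrays and lower on both Eed cKO arrays, at 245203 and 241996. The nearest arrays of the 2 groups lay closer together than the 2 Wt arrays. Whether differences are compressed at the brightness of markers such as Col2a1 was not tested.

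Fndc3c1 was the gene with the highest rise in Eed cKO cells. Its signal was 509 in Wt 1, 584 in Wt 2, 4332 in Eed cKO 1 and 4822 in Eed cKO 2. Both Eed cKO arrays were high and both Wt arrays low, with no overlap. Such a separation, in either direction, was found for 60.1% of all genes tested. The mean was 547 ± 53.2 in Wt and 4577 ± 346 in Eed cKO cells (± SD, n = 2 arrays), an 8.37-fold ratio of means. Every Eed cKO array exceeded every Wt array by a factor between 7.42 and 9.47, while arrays of 1 group differed by 14.8% in Wt and 11.3% in Eed cKO cells. On the log2(intensity + 32) scale the difference was 2.99 (SE 0.09). No test is given, since this difference chose the gene. The next gene, Ibsp, which encodes bone sialoprotein, had a difference of 2.51 on that scale.

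**Figure D1:**
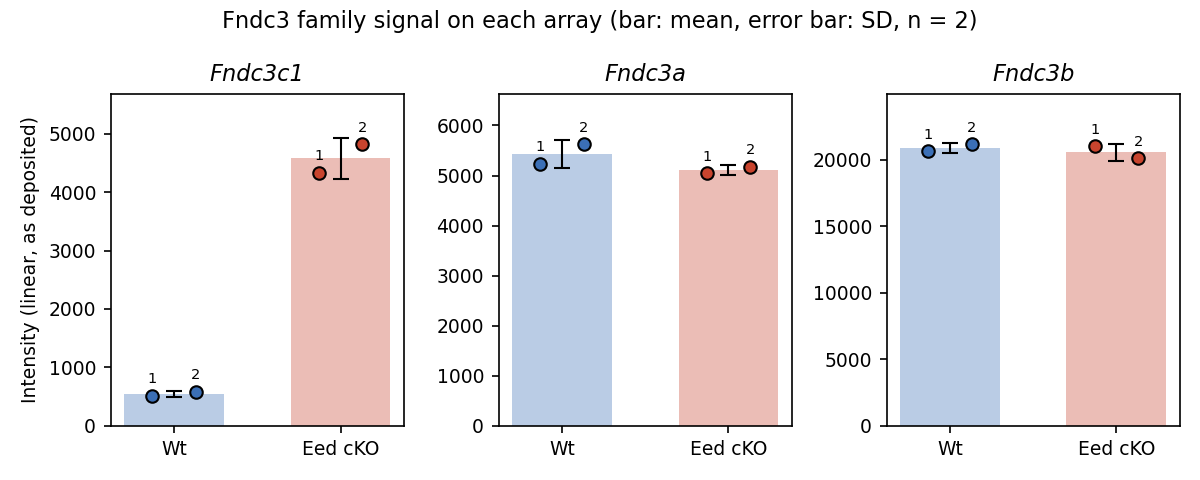
Intensity on a linear scale (y axis, each panel from 0) for Fndc3c1, Fndc3a and Fndc3b in Wt and Eed cKO cells. Points are single arrays with their replicate number, bars are means and error bars are SD over 2 arrays. Fndc3c1 went from 509 and 584 to 4332 and 4822, while the Eed cKO signals of Fndc3a and Fndc3b stayed between 0.897 and 1.02 times those of the Wt arrays.

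The Wt signal of Fndc3c1 lay in the upper range of probe sets for olfactory and vomeronasal receptors, genes of sensory neurons. Of 1301 such probe sets, a group chosen after the values were seen, 14.2% were as bright as Fndc3c1 or brighter in Wt 1 and 9.15% in Wt 2. In each Eed cKO array 1 of these probe sets was as bright. Probe sets differ in how well they bind, so this places the brightness and does not measure RNA, and how much of the Wt signal came from Fndc3c1 RNA was not tested. The ratio of means is a ratio of signals.

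The paralog Fndc3a did not pass the threshold. Its signal was 5238 in Wt 1, 5627 in Wt 2, 5045 in Eed cKO 1 and 5180.1 in Eed cKO 2, so both Eed cKO arrays were lower than both Wt arrays, by a small step. The same separation, in either direction, was found for 60.1% of all genes tested. The means were 5432 ± 275 in Wt and 5113 ± 95.3 in Eed cKO cells, and the fitted log2 value was -0.09 with an SE of 0.06 (limma adjusted p = 0.358 over all genes). Its 95% confidence interval was -0.22 to 0.05, which is a change of between -14.1% and 3.36%. Within Wt the 2 arrays differed by 7.42%, more than the difference between the group means.

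The paralog Fndc3b did not pass the threshold either. Its signal was 20642 in Wt 1, 21171 in Wt 2, 21010.3 in Eed cKO 1 and 20118 in Eed cKO 2, and the groups overlapped. The means were 20907 ± 374 in Wt and 20564 ± 631 in Eed cKO cells, and the fitted log2 value was -0.02 with an SE of 0.03 (limma adjusted p = 0.685). Its 95% confidence interval, from -0.10 to 0.06, is a change of between -6.97% and 3.97%. The Fndc3b probe set was brighter than those of 97.7% of the genes tested, and whether differences are compressed at this brightness was not tested. Without Eed cKO 2 the difference was 0.01, with the sign turned. Of the paralogs 0 of 2 were called by limma, against 15.6% of all genes tested (9.63% higher and 6% lower), and neither had an unadjusted p under 0.05 (0.172 and 0.502). The methods' t-test, run in the same way across all genes, called neither after adjustment (0.486 and 0.741). The paper's own count of upregulated genes on its arrays was by fold.

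**Figure D2:**
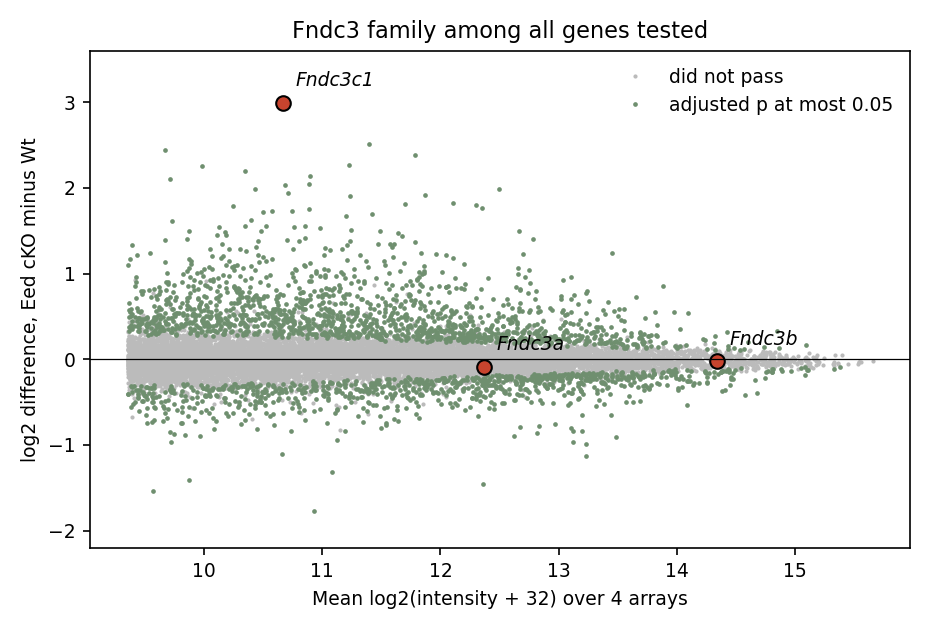
Each point is 1 of 14944 genes, with the mean of log2(intensity + 32) over 4 arrays on the x axis and the log2 difference, Eed cKO minus Wt, on the y axis; green points passed an adjusted p of 0.05. Fndc3c1 lies at 2.99 above all other genes, and Fndc3a and Fndc3b lie at -0.09 and -0.02, inside the band of genes that did not pass.

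Because Fndc3c1 is X-linked, its values were set beside genes that mark sex. For Xist, which coats the silenced X chromosome, Wt 1 gave 17819.7, Wt 2 gave 3634, Eed cKO 1 gave 4845 and Eed cKO 2 gave 17196. For Ddx3y, a helicase gene of the Y chromosome, Wt 1 gave 192, Wt 2 gave 4664, Eed cKO 1 gave 4324 and Eed cKO 2 gave 622. The Xist signal thus was higher on 1 array of each group, and that of Ddx3y on the other. On Wt 2 and Eed cKO 1 both genes lay well above the array medians of about 830 and 834. Whether an array held cells of both sexes was not tested. Between the arrays with high Xist, the Fndc3c1 signal of Eed cKO 2 was 9.47 times that of Wt 1, and between the others that of Eed cKO 1 was 7.42 times that of Wt 2. In each group the array with high Ddx3y did not stand in the same order for Fndc3c1, being the higher of the pair in Wt and the lower in Eed cKO. The part of sex in the difference was not tested.

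**Figure D3:**
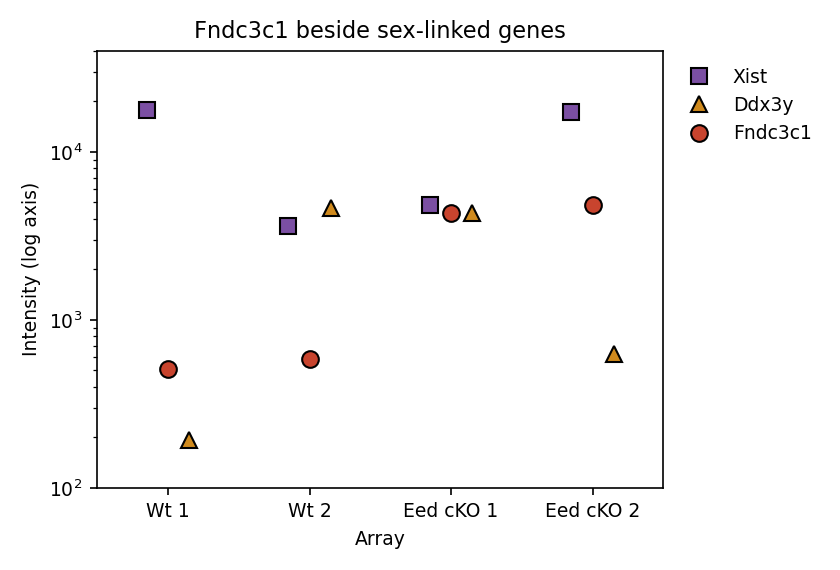
Intensity on a log axis for Xist (squares), Ddx3y (triangles) and Fndc3c1 (circles) on each of the 4 arrays. Xist is at 17819.7 and 17196 on Wt 1 and Eed cKO 2 and at 3634 and 4845 on the others, whereas Fndc3c1 is at 509 and 584 on the Wt arrays and at 4332 and 4822 on the Eed cKO arrays.

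Other X-linked genes were called about as often as genes overall. Of 465 X-linked genes tested, Fndc3c1 included, 41 rose and 33 fell, which is 15.9% against 15.6%, and the median log2 difference was -0.01 against 0.00. Both counts were lower with either Wt array left out, as were those over all genes. After Fndc3c1 the X-linked gene with the highest difference was L1cam, a neural adhesion molecule with fibronectin type III domains, which rose by 1.49 (limma adjusted p = 0.000160).

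The neighbours of Fndc3c1 on the X chromosome were counted in the same fit. Among the 5 genes with a kept probe set on each side in the order of RefSeq, 0 rose, 1 fell and 9 did not pass by limma (2 higher and 2 lower at an unadjusted p under 0.05, and 0 called by the methods' t-test). That is 10% called, against 15.6% of all genes. The gene next on 1 side, Taf9b, a subunit of transcription initiation complexes, had a log2 difference of -0.01 (limma adjusted p = 0.957). Rtl3, a gene derived from a retrotransposon and next on the other side, had 0.12 (0.0574). Pgk1, a glycolytic enzyme, fell by 0.28 (0.00322), and P2ry10b had -0.48 (0.0583). Without Eed cKO 1 there were 2 that rose, and without Wt 2 there was 1. Without Eed cKO 2 there were 3 that fell, and without Wt 1 there were 2. The largest difference among these neighbours, that of P2ry10b, was downward.

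Next to Fndc3a on chromosome 14, 3 of 10 neighbours rose and 7 did not pass, where 9.63% of all genes rose and 14.3% of the 503 genes tested on this chromosome were called in either direction. They lie in a row on the same side, after Gm9198 and Rcbtb2. Rb1, the retinoblastoma cell cycle inhibitor, rose by 0.34 (limma adjusted p = 0.0178), a call lost without Wt 1 (0.0820). Lpar6, a receptor for lysophosphatidic acid whose gene lies within an intron of Rb1, rose by 1.10 (0.00123), from 695 and 839 in Wt to 1754 and 1589 in Eed cKO arrays. Itm2b, a membrane protein, rose by 0.38 (0.00168). Gm9198 and Dok2, the neighbours closest to Fndc3a on either side, had -0.20 (0.227) and -0.07 (0.627). Of the 10 neighbours of Fndc3b on chromosome 3, 0 were called by limma (1 at an unadjusted p under 0.05) and 0 by the methods' t-test, where 15.6% of all genes were called by limma. Without Eed cKO 1 there was 1 that rose, and Ghsr and Pld1 on its 2 sides had differences of -0.05 and 0.03. These are orders of genes only, and the distances between them differ.

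**Figure D4:**
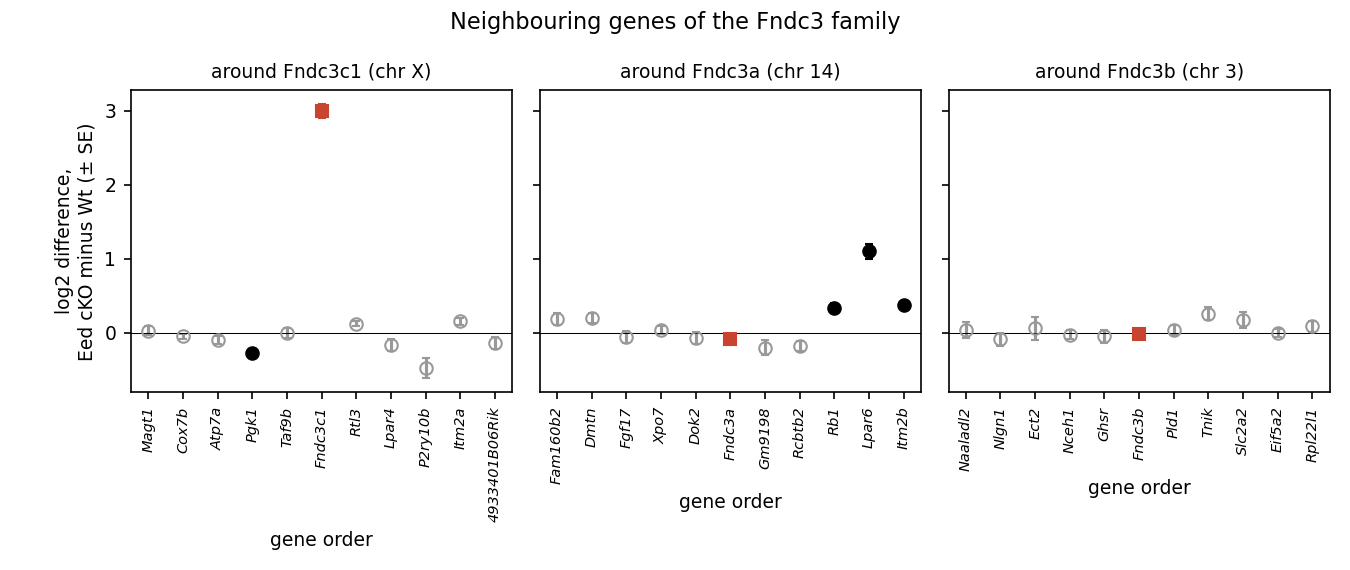
Log2 difference, Eed cKO minus Wt, with SE (y axis) for each member (red square) and the 5 genes tested on either side of it in gene order (circles, filled black where the adjusted p was at most 0.05). Fndc3c1 at 2.99 stands among neighbours between -0.48 and 0.15, while Rb1, Lpar6 and Itm2b lie above 0 beside Fndc3a.

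Over the 4 arrays, the genes with patterns most like that of Fndc3c1 were other strong risers. Likeness was the distance between the 4 log2 values after each gene's mean was subtracted, over 4 arrays of 2 groups, so it mostly reflects the size of the difference. Ibsp was closest at 0.58, followed by the ligand-activated transcription factor Ahr at 0.64. Raet1b, a ligand of an immune receptor, was at 0.74, Rbm46, which binds RNA in germ cells, at 0.80 and the interferon-induced Ifit1 also at 0.80. Within 0.2 of Fndc3a lay 8306 genes, and within 0.2 of Fndc3b lay 9515. That 0 genes lay within 0.2 of Fndc3c1 follows from its choice by the highest difference, 2.99 against 2.51 for Ibsp. For Fndc3a the closest were Adpgk, Abhd17c and Hspb6, at 0.01 each, and for Fndc3b an unnamed transcript (ENSMUSG00000073540), Alkbh6 and Bcl7b, at 0.00, 0.01 and 0.01. The paralogs share their flat pattern with a large part of the genes tested.

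Genes related to the family by name or domain were counted in the same fit. Of 9 other genes named Fndc, 5 were tested, of which Fndc1, a secreted protein with fibronectin type III domains, rose by 0.52 (limma adjusted p = 0.00570) and 4 did not pass (list median 0.06). Fndc3c2 was not among the genes tested. Of 12 matrix genes with these domains, Tnc, encoding tenascin-C, rose by 0.55 (0.00357), Fndc1 rose, Fn1, encoding fibronectin itself, fell by 0.09 (0.0356) and 9 did not pass (median 0.07). Fn1 lost its call in the fits that left out Wt 1 (0.120), Wt 2 (0.195) or Eed cKO 2 (0.0813), and also with quantile normalization (0.199) or without the intensity trend (0.331). Without Eed cKO 1 there were 4 matrix genes that rose, and without Wt 2 there were 3. Of 32 cell surface genes with these domains, 15 rose, 1 fell and 16 did not pass (50% called, median 0.22). Among them Axl, a receptor kinase, rose by 1.00, L1cam by 1.49, the ephrin receptor Epha2 by 1.19 and the receptor phosphatase Ptprd by 1.56. The hedgehog co-receptor Boc fell by 0.29. Epha7, counted among the 15, passed the filter through the Eed cKO arrays, with a Wt mean of 620. These lists are described by their counts beside the 15.6% of all genes that were called, and were not tested as sets.

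Genes of the pathways in which the paralogs are known to act were counted beside the same background of 9.63% of all genes higher, 6% lower and 15.6% in either direction. Of 13 genes of the adhesion between Sertoli cells and spermatids, many of which are general junction genes, 8 rose and 5 did not pass (61.5% called, median 0.25). F11r, a junctional adhesion molecule, rose by 2.10, Nectin2 by 0.72, Vcl, encoding vinculin, by 0.36 and Cadm1 by 0.46. F11r and Nectin2 passed the filter through the Eed cKO arrays, since their Wt means of 373 and 506 lay under the limit of about 623. Fewer of this list rose with any array left out, and the calls of Cadm1, Jam3, Afdn, Gja1 and Tjp1 were each lost in at least 1 such fit. With all 4 arrays, Jam3 lost its call without the filter (limma adjusted p = 0.0584), with quantile normalization (0.0748) or with the replicate number as a block (0.0584). Afdn lost its call with quantile normalization (0.0634) and Gja1 without the intensity trend (0.0823). Over all genes, fewer rose without either Wt array and more rose without either Eed cKO array. Of 14 genes of adipocyte differentiation, 5 rose, 1 fell (Klf4, a zinc finger factor, by 0.20, 0.0460) and 8 did not pass (42.9% called, median 0.21). Lpl, encoding lipoprotein lipase, rose by 1.22 and Pparg, the master regulator of fat cells, by 0.45. The fatty acid binding protein Fabp4 rose by 0.61 and the zinc finger factor Zfp423 by 0.43. Cd36, also counted as risen, passed the filter through the Eed cKO arrays, with a Wt mean of 615. Fewer of this list rose without Wt 1 or without Wt 2, as over all genes, and the Zfp423 call was lost in both of these fits. Klf4 lost its call in the fits that left out Wt 1 (0.118), Wt 2 (0.223) or Eed cKO 2 (0.0979), and also without the filter (0.0584), without the trend (0.0964) or with the replicate number as a block (0.0515). Of 18 BMP, Smad and osteoblast genes, 4 rose, 2 fell and 12 did not pass (33.3% called, median 0.05). Alpl, a phosphatase of mineralising cells, rose by 0.96, the transcription factors Dlx5 and Sp7 by 0.75 and 1.05, and the inhibitor Id4 fell by 0.48. Without Eed cKO 1 there were 4 of this list that fell, and leaving out any other array left 1.

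**Figure D5:**
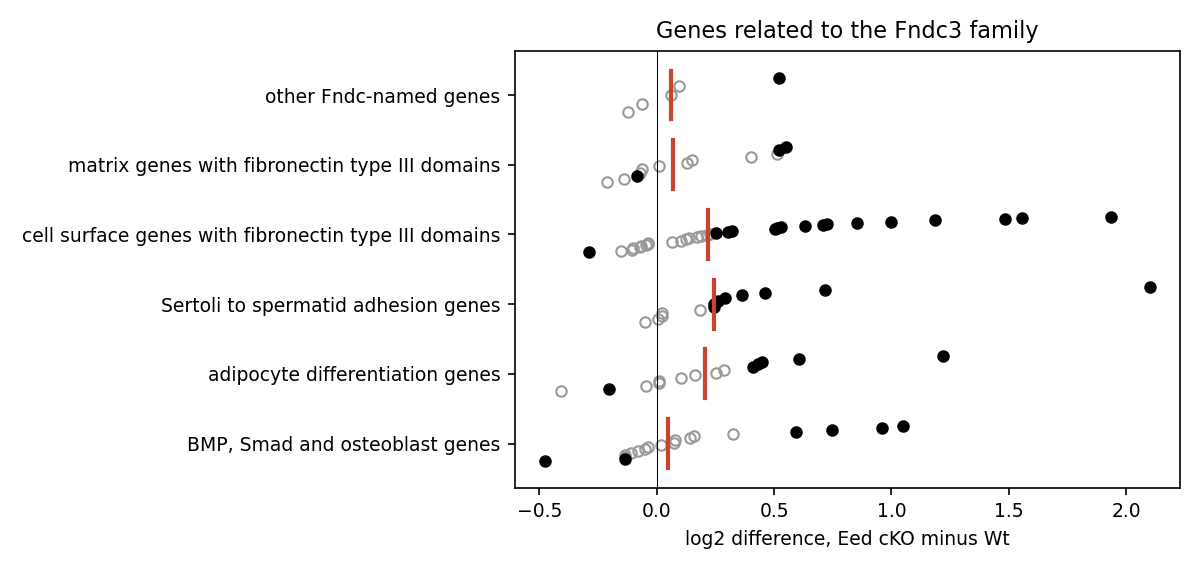
Log2 difference, Eed cKO minus Wt (x axis), of each tested gene of 6 lists (y axis). Filled points passed an adjusted p of 0.05, open points did not, and red lines are list medians, which lie between 0.05 and 0.25.

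Markers of other cell types were counted in the same way, against 9.63% of all genes that rose and 6% that fell. Of 10 fibroblast and perichondrium markers 7 rose and 1 fell, with a summed signal of 77635 and 83278 in Wt and 89979.8 and 98030.0 in Eed cKO arrays. Of 4 osteoblast markers tested 3 rose (Ibsp, Alpl and Sp7), with sums of 7552 and 8994 against 17706 and 22642. Dmp1, the other, had 0.12 and did not pass (limma adjusted p = 0.469). The paper reports that hypertrophic chondrocytes arose earlier in the embryonic axial skeleton of Eed cKO mice. In the tibial growth plate after birth it reports a smaller domain of these cells. Which cells gave the rise of the osteoblast markers was not tested. Of 7 muscle markers 2 rose and 1 fell (sums of 19740.2 and 20261.5 against 18656 and 19279), and of 5 endothelial markers 1 rose and 1 fell (6427 and 6374 against 6462 and 6910.3). Of 7 macrophage and 4 red cell markers 1 each fell, and their sums overlapped between the groups. Of 9 germ cell and Sertoli markers 3 were tested and 0 were called by limma (0 at an unadjusted p under 0.05) or by the methods' t-test (1 at an unadjusted p under 0.05), with sums between 2203 and 2381. No marker tested was at 0, but the filter had left out dim genes, so this does not show that a cell type was present. The part of these cells in the Fndc3c1 difference was not tested, and more cells of a type and more RNA per cell cannot be told apart in these arrays.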

How the data were processed

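The deposited values are linear intensities for 35512 probe sets, made by the authors. A supplementary sheet of the study is named for dChip signals. Background correction, normalization method and genome build: no source used here gives them. The series matrix held the same intensities. The 3 columns with the authors' own ratio of Eed cKO to Wt were not used. An array has no read depth, and 2 arrays per group limit the precision. Probe sets were named through RefSeq genes (GRCm38.p6, used for names, chromosomes and gene order) by accession (18664), symbol (2420) or older name (1957), 2134 stayed under the deposited name, and 10337 were unnamed. Each gene was represented by its probe set with the highest mean of log2(intensity + 32), and genes under the 33rd percentile of that mean were left out. Eed cKO minus Wt was fitted with limma 3.58.1 in R 4.3.3 (lmFit, eBayes with an intensity trend, two-sided), with group as the single term and Benjamini-Hochberg adjustment over all 14944 genes kept. Genes at an adjusted p of at most 0.05 are said to have risen or fallen. The pseudocount of 32 makes differences of dim genes smaller. The fit was tested on simulated data. Figures and counts used Python 3.11.15.

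Members, lists and tests were chosen with earlier results of these data known. Genes named are the members, their neighbours that passed and those next to them, the closest patterns, up to 4 genes of each list with the smallest p, all that passed where 5 or fewer did, and Eed, Xist and Ddx3y. L1cam as an X-linked gene, P2ry10b, Rcbtb2, Boc, Klf4, Dmp1, Col2a1, Matn1, Acan and Cnmd were named after their values were seen. So were Epha7, Cd36, Jam3, Afdn, Gja1 and Tjp1. Alternatives were the pseudocount, the filter, quantile normalization, the trend, the methods' t-test, the use of several probe sets, the replicate number as a block and leaving out each array.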

Additional observations from a re-analysis of the deposited data

How the results depend on the processing

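The Fndc3c1 difference was between 2.86 and 3.09 in all settings, and the lowest value came with a pseudocount of 100 in place of 32. When each array was left out in turn it ran from 2.90 to 3.09, that of Fndc3a from -0.14 to -0.03 and that of Fndc3b from -0.055 to 0.0073, the positive value being the fit without Eed cKO 2. Neither paralog passed in any setting run, with adjusted p between 0.277 and 0.889 for Fndc3a and between 0.333 and 0.971 for Fndc3b. Counts over all genes moved more. With an array left out, between 931 and 1580 genes rose and between 395 and 1203 fell. Without Wt 1 there were 931 and 515, and without Wt 2 there were 990 and 395. The array then alone in its group is assumed to vary as the other group does. Without the intensity trend 575 fell. By the methods' t-test, adjusted the same way, 2 rose and 2 fell, with 2941 genes at an unadjusted p under 0.05. A filter on the mean intensity was added after the data were seen and gave 1438 and 894. With the replicate number as a block, 1539 rose and 991 fell. Across genes, the deviations of Wt 1 and Eed cKO 1 from their group means had a correlation of -0.01. With 2 arrays per group this cannot tell whether samples of the same number shared a litter. Of 43 called genes in the lists and among the neighbours, 0 changed sign. In at least 1 setting besides the t-test, 13 lost the call. The other 30 passed, apart from the t-test, in every setting in which they were tested. A stricter filter on dim genes left some of them untested, among them F11r, L1cam and Lpar6.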
